A study of Rattus norvegicus with 8 samples.

Results

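Posterior Hox genes, those of paralog groups 9 to 13, were followed in the middle colon of rats fed a reference, a cocoa, a cocoa fiber or an inulin diet. The members were 9 named genes, Hoxa9, Hoxa10, Hoxa11, Hoxa13, Hoxb9, Hoxb13, Hoxd9, Hoxd10 and Hoxd13. A probe on the array could be matched by accession to 6 of these genes, namely Hoxa11, Hoxb9, Hoxb13, Hoxd9, Hoxd10 and Hoxd13, each with a single probe, and all 6 were among the 19901 genes tested. Hoxa9, Hoxa10 and Hoxa13 had no matched probe and are not reported. The record behind the Hoxa11 probe lists Hoxa10 among its older synonyms, and the value is given here under the current symbol.

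Female Wistar rats received 1 of 4 diets for 3 weeks, with 10 rats per diet, and total RNA from a short piece of the middle colon was read on arrays in 4 rats of each. The age on their labels is 6 weeks. The REF group ate the standard AIN-93M diet, the C10 group a diet with 10 % cocoa, the CF group a diet that supplied the fiber of cocoa nearly without its polyphenols, and the I group a diet with inulin as its soluble fiber. Each of 8 two-colour arrays carried 2 rats, 1 labelled with Cy5 and 1 with Cy3, and every rat was on 1 array only. Rats are numbered within their diet in the order of the deposited samples, so a number does not pair rats of different diets. The C10 rats were on arrays 1 to 4 and the I rats on arrays 5 to 8, whereas the REF and CF rats were on both sets.

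Hox genes encode homeodomain transcription factors that lie in clusters on several chromosomes and are expressed along the body axis in the order in which they lie in the cluster. Genes of the last paralog groups act at the posterior end of the body, the hindgut and the urogenital tract included, and several keep a regional level in the adult colon. Hoxb13 is best known from the distal colon, the rectum and the prostate, Hoxd13 and Hoxa13 from the terminal hindgut and the digits, and Hoxa11 from the limb, the kidney and the uterus. Their proteins bind DNA together with TALE cofactors such as the MEIS and PBX proteins, and their clusters are held silent or active by Polycomb and Trithorax chromatin complexes.

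In the RefSeq annotation, Hoxd13, Hoxd12, Hoxd11, Hoxd10 and Hoxd9 follow each other on chromosome 3, Hoxb13 and Hoxb9 are neighbours within the Hox genes of chromosome 10, and Hoxa11 lies between Hoxa10 and Hoxa13 on chromosome 4. The 250 bases before the annotated start are shown for 3 members because Hoxd13 and Hoxd10 varied together across rats whereas Hoxa11 varied against Hoxb13. They are printed from the RefSeq build GRCr8, 5′ to 3′ on the strand of the gene, with every CpG in capitals. The positions are chr3:79977827-79978076 on the plus strand for Hoxd13, chr3:80001697-80001946 on the plus strand for Hoxd10 and chr4:82676802-82677051 on the minus strand for Hoxa11.
Hoxd13: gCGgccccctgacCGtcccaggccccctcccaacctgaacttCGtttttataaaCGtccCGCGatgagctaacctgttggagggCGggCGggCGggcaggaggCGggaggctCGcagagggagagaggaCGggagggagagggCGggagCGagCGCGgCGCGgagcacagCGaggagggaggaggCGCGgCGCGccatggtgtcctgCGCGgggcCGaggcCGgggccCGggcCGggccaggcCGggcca
Hoxd10: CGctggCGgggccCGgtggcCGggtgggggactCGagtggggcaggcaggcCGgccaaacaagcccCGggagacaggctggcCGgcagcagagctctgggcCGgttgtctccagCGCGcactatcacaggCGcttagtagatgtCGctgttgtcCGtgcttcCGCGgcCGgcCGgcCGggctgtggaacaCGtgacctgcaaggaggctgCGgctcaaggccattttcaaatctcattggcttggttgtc
Hoxa11: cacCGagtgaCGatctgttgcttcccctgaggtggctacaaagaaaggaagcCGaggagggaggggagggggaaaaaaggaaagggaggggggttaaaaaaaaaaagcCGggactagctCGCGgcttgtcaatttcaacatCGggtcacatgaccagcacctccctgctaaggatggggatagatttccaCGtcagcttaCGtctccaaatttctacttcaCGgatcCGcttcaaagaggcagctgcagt
The Hoxd13 window held 30 CpG, more than 94.7 % of the 33469 rat promoter windows of the same length, whose median was 5. The Hoxd10 window held 21 CpG (more than 84.9 % of windows) and the Hoxa11 window 11 (more than 66.4 %). The letters TATAAA, the TATA box, were found in the Hoxd13 window, in 2 overlapping matches on opposite strands, and on either strand in 12.9 % of all windows, but not in the Hoxd10, Hoxd9 or Hoxa11 windows. None of these 4 windows held TTTATNG, a core shared by CDX and posterior HOX sites (10.1 % of all windows on either strand), TGATTNAT, a PBX-HOX site (2.82 %), or the half-site AGGTCA followed by itself after NNNNN, a direct repeat bound by retinoic acid receptors (0.00896 %). A match of letters is a description and not a site. Promoters of Hoxb13 and Hoxb9 were not used here.

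Signals are given as log2 of the normalized fluorescence of a gene's probe, and 1 unit is a 2-fold difference. Levels of different genes come from different probes and were not compared with each other. All 6 genes passed the scanner software's test of signal over background in all 16 rats. The dimmest spot that passed it lay, depending on the rat, at 5.83 to 6.22. Between 68.6 and 83.9 % of the spots passed per rat, and 0 spots were saturated. Of the 11 colon epithelium genes tested, which mark the labelled tissue, the mean log2 signal per rat was 13.4 to 14.5. The mean of the 2 squamous epithelium genes tested was 6.24 to 6.47, near the background, in every rat. Smooth muscle genes stood apart in C10 rat 1, in which the mean of 10 genes was 11.04 against 12.49 to 13.37 in the other rats.

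Hoxb13 differed more between single rats than nearly any other gene on the array. In REF it was 13.13, 12.36, 14.06 and 6.60, in C10 14.05, 14.35, 13.42 and 14.88, in CF 13.93, 9.72, 13.98 and 14.35, and in I 13.78, 9.96, 13.57 and 12.62. One rat each of the REF, CF and I groups lay far below the other 13 rats, and no C10 rat did. The distance from the lowest to the highest rat was 8.29 on the log2 scale, a 312-fold range, which ranked 2 among the 19901 genes, and the standard deviation within diets, 2.21, ranked 11. The median gene had a range of 0.61 and a standard deviation within diets of 0.17.

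Hoxd13 was 7.25, 6.93, 7.87 and 6.25 in REF, 7.003, 7.89, 8.33 and 9.63 in C10, 7.91, 7.04, 7.74 and 7.98 in CF and 7.36, 7.24, 7.54 and 7.07 in I. Hoxd10, which with its neighbours patterns the limb and the motor neurons of the lumbar cord, was 8.67, 8.18, 8.57 and 7.66 in REF, 8.63, 9.19, 8.82 and 10.76 in C10, 9.13, 7.94, 8.77 and 9.53 in CF and 8.87, 8.21, 8.60 and 8.15 in I. The 3 rats lowest in Hoxb13 had Hoxd10 signals of 7.66, 7.94 and 8.21, and 2 further rats, REF rat 2 and I rat 4, lay within this range. For both genes REF rat 4 was the lowest and C10 rat 4 the highest of all 16 rats, and the groups overlapped in every comparison. Their ranges were 10.4-fold for Hoxd13 and 8.57-fold for Hoxd10.

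Hoxa11 ran the other way. It was 10.24, 10.54, 9.59 and 11.27 in REF, 9.41, 9.95, 9.88 and 9.72 in C10, 9.98, 11.19, 9.76 and 9.98 in CF and 9.82, 10.87, 9.81 and 10.62 in I. Its 3 highest rats were REF rat 4, CF rat 2 and I rat 2, the same rats that were lowest in Hoxb13, and the range was 3.63-fold.

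Hoxd9 and Hoxb9, the tested members of paralog group 9, which act in the trunk and the lumbar region, varied less. Hoxd9 was 8.08, 8.14, 8.21 and 8.31 in REF, 8.16, 8.37, 8.53 and 9.37 in C10, 8.62, 8.73, 8.28 and 8.64 in CF and 8.28, 8.61, 8.24 and 8.07 in I, with C10 rat 4 apart from the rest. Hoxb9 was 6.76, 6.78, 6.86 and 6.57 in REF, 6.77, 6.63, 7.10 and 6.90 in C10, 7.07, 6.73, 6.63 and 6.97 in CF and 6.73, 6.80, 7.28 and 6.70 in I, and its groups lay over each other. Their ranges were 2.47-fold and 1.64-fold. Hoxb9 lay little above the dimmest spots that passed over background, at 5.83 to 6.22, where the normexp offset of 50 shrinks differences. The part of this dim signal in its narrow range was not tested.

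**Figure D1:**
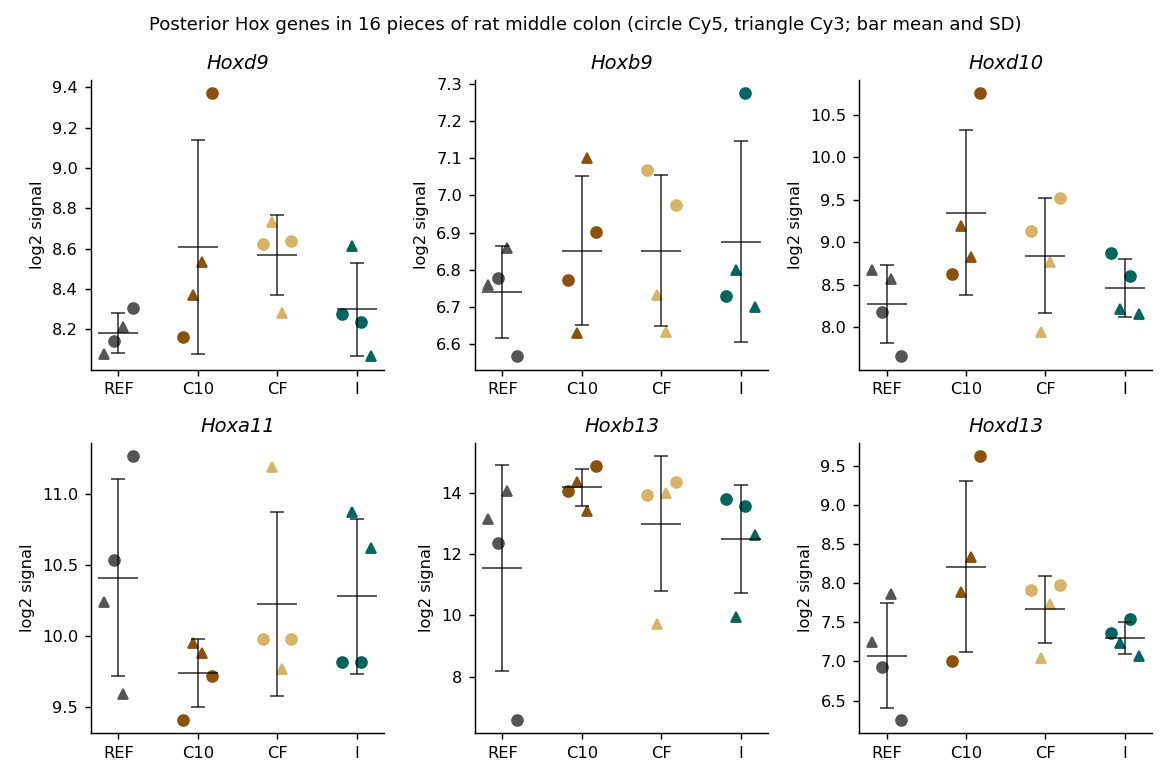
Log2 signal (vertical axis of each panel) of the 6 posterior Hox genes tested in each rat by diet (horizontal axis), with circles for Cy5, triangles for Cy3 and bars for the mean and SD of 4 rats. Hoxb13 lies at 6.60, 9.72 and 9.96 in 1 rat each of REF, CF and I and at 12.36 or more in the other 13 rats, and Hoxa11 is highest in the same 3 rats.

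Most of the variation of these genes lay between rats of the same diet. The share of the sum of squares between the 4 diets was 34.5 % for both Hoxd13 and Hoxd10, 30.9 % for Hoxd9, 21.5 % for Hoxa11, 19.8 % for Hoxb13 and 7.96 % for Hoxb9, and its median over all genes tested was 17.1 %. In a bulk piece of tissue, fewer cells of a type and less RNA per cell cannot be told apart.

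The comparison of C10 with REF asked for the effect of the cocoa diet. Posterior Hox genes of the B and D clusters had higher mean signals in C10 than in REF, and Hoxa11 a lower one, but 0 of the 6 passed the test, which needed an adjusted p below 0.05 and at least a 2-fold change, against 0.226 % of all genes tested. Hoxb13 was 14.18 ± 0.61 in C10 and 11.54 ± 3.37 in REF (SD, n = 4), and the fitted log2 change was 2.78 (SE 1.36, limma adjusted p = 0.297). Hoxd13 was 8.21 ± 1.09 against 7.08 ± 0.67, a fitted change of 0.997 (SE 0.43, limma adjusted p = 0.231). Hoxd10 was 9.35 ± 0.97 against 8.27 ± 0.46, a fitted change of 0.99 (SE 0.42, limma adjusted p = 0.227). Hoxa11 was 9.74 ± 0.24 against 10.41 ± 0.69, a fitted change of -0.78 (SE 0.29, limma adjusted p = 0.174). The fitted changes of Hoxd9 and Hoxb9 were 0.30 (SE 0.16) and 0.08 (SE 0.10).

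These differences were within or near the spread between rats. At an unadjusted p below 0.05 limma passed 3 of the 6 genes, Hoxa11, Hoxd10 and Hoxd13, against 18.4 % of all genes tested. The exact two-sided permutation test of 4 rats against 4, whose smallest possible p is 0.0286, gave p = 0.0571 for Hoxd10, p = 0.0857 for Hoxb13 and Hoxd9, and p = 0.114 for Hoxd13 and Hoxa11. No member had groups that did not overlap, against 4.64 % of all genes. The median fitted change of the 6 genes was 0.64, beside 0.01 over all genes tested. Rank product, the test of the study's methods, called Hoxb13, Hoxd10 and Hoxd13 as higher, 3 of 6 against 0.678 % of all genes. A call needed a percentage of false prediction below 0.05 and at least a 2-fold change. Its permutations shuffled genes within each rat, so a change was not set against the gene's own spread between rats. By the standard deviation within diets, 0.05 % of all genes varied more than Hoxb13, 1.99 % more than Hoxd10 and 1.76 % more than Hoxd13. These genes are among those the study chose on these very rats, which is therefore not independent evidence of their direction.

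Single rats decided the size of the changes. Without REF rat 4 the change of Hoxb13 was 1.25 (SE 0.87, limma adjusted p = 0.572), and without REF rat 1 it was 3.77. Without C10 rat 4 the changes of Hoxd13 and Hoxd10 were 0.52 and 0.55, and without C10 rat 1, the rat with the low smooth muscle signal, they were 1.62 and 1.56, with limma adjusted p = 0.0693 and 0.0847. Hoxd9 went from 0.30 to 0.13 without C10 rat 4 and to 0.50 without C10 rat 1. The change of Hoxa11 was -0.52 without REF rat 4 and stayed negative without any 1 rat. Within arrays 1 to 4, which held 4 C10 and 2 REF rats, the mean differences were 1.43 for Hoxb13, 1.12 for Hoxd13, 0.92 for Hoxd10 and -0.65 for Hoxa11.

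**Figure D2:**
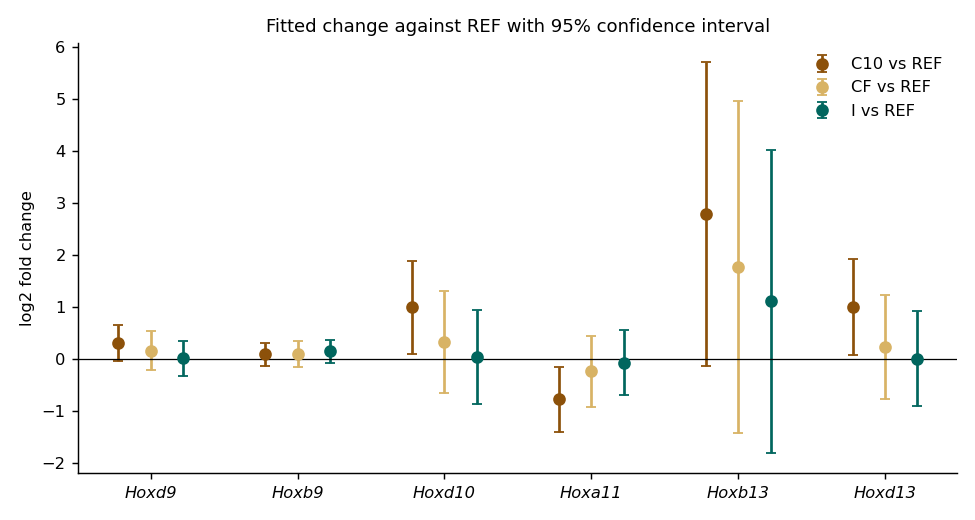
Fitted log2 fold change against REF (vertical axis) of each posterior Hox gene (horizontal axis) in C10, CF and I, with points for the estimate and bars for the 95 % confidence interval, not adjusted for the number of genes. The C10 estimates run from -0.78 for Hoxa11 to 2.78 for Hoxb13, whose intervals are the widest.

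With the cocoa fiber diet, 0 of the 6 genes were called by limma, as were 0 % of all genes, 0 had an unadjusted p below 0.05 (7.17 % of all genes) and 0 had groups that did not overlap (1.9 %). Hoxb13 was 12.996 ± 2.19 in CF (SD, n = 4), a fitted change of 1.76 from REF (SE 1.49, limma adjusted p = 0.864). The difference turned with the set of arrays, being -0.92 on arrays 1 to 4 and 3.84 on arrays 5 to 8, with 2 CF and 2 REF rats on each. CF rat 2 was on the first set and REF rat 4 on the second. The mean differences of Hoxd13 were 0.39 and 0.80 on these sets and those of Hoxd10 0.11 and 1.03. Hoxd9 was 8.57 ± 0.20 in CF and 8.18 ± 0.10 in REF, with an exact permutation p = 0.0571 and a fitted change of 0.15 (limma adjusted p = 0.905). Rank product called Hoxb13, 1 of 6 against 0.246 % of all genes.

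With the inulin diet, 0 of the 6 genes were called by limma and by rank product, against 0 % and 0.151 % of all genes, 0 had an unadjusted p below 0.05 (6.39 % of all genes) and 0 had groups that did not overlap (2.03 %). The fitted changes were 1.10 for Hoxb13 (SE 1.36, limma adjusted p = 0.939), 0.03 for Hoxd10 and 0.00 for Hoxd13, whose 95 % confidence interval was -0.92 to 0.92. The median fitted change was 0.19 in CF and 0.02 in I. All 3 comparisons share the REF rats.

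Between the experimental diets, 0 members were called by limma. Hoxb13 was higher in C10 than in I by a fitted 1.68 (95 % confidence interval -1.51 to 4.87) and than in CF by 1.02 (-1.90 to 3.94). In C10 against I the background was 0.171 %, and Hoxd13 and Hoxd10 differed by 0.997 and 0.96 with limma adjusted p = 0.388 and 0.401. C10 and I shared no array, nor did CF and REF. For C10 and I, diet and set of arrays can be told apart only through REF and CF. Rank product called Hoxb13 in C10 against I, where 0.553 % of all genes were called. Hoxd13 and Hoxd10 had percentages of false prediction of 0.02 and 0.0433 by rank product. Their mean differences, 0.91 and 0.89, were below 2-fold, so they were not called. In C10 against CF and CF against I, limma called 0.121 % and 0 % of all genes and rank product 0.332 % and 0.0754 %, with 0 members among them. At an unadjusted p below 0.05, Hoxa11 alone passed in C10 against I (12.9 % of all genes), with a change of -0.70 (95 % confidence interval -1.38 to -0.02), and 0 members did in C10 against CF (14.4 %) and in CF against I (3.32 %). In these comparisons 5.93 %, 3.51 % and 1.03 % of all genes had groups that did not overlap, and 0 members had.

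Across rats, Hoxb13, Hoxd10 and Hoxd13 varied together and Hoxa11 against Hoxb13. Each gene's deviation from the mean of its diet was set against that of each other member, and p-values came from 100000 permutations of rats within diets, adjusted over 15 pairs. Here and below, permutations within diets had no term for dye or for the 2 rats sharing an array. Of the 15 pairs, 4 passed. Hoxd10 and Hoxd13 moved together, with r = 0.867 and rho = 0.832 (permutation p = 0.00061 and 0.00115, adjusted p = 0.00305). Without the 2 rats farthest from the median of Hoxd10, r was 0.763. Hoxb13 moved with Hoxd10, with r = 0.642 and rho = 0.824 (permutation p = 0.0003 and 0.0001, adjusted p = 0.00305), and with Hoxd13, with r = 0.576 and rho = 0.694 (permutation p = 0.00348 and 0.0019, adjusted p = 0.0131). Without the 2 rats farthest in Hoxb13, these r were 0.509 and 0.384.

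Hoxa11 moved against Hoxb13, with r = -0.888 and rho = -0.797 (permutation p = 0.00048 and 0.00318, adjusted p = 0.00305). Without the 2 rats farthest in Hoxa11, r was -0.802. Since 3 rats lay apart in Hoxb13, the pairs were also computed in the 13 rats with a log2 signal of at least 12, a choice made after the data were seen. There r was -0.717 for Hoxa11 and Hoxb13, with an exact permutation p = 0.0571 and an adjusted p = 0.171. This choice narrows the range of Hoxb13 and the number of rats. The part of the 3 rats in this relation was not tested further. Hoxb13 and Hoxd10 kept r = 0.681 (exact permutation p = 0.0102, adjusted p = 0.0434), whereas Hoxb13 and Hoxd13 had r = 0.552 (exact permutation p = 0.100, adjusted p = 0.251). Hoxd10 and Hoxd13 kept r = 0.843 (adjusted p = 0.0434 by the exact permutation test).

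In these 13 rats, chosen after the data were seen, Hoxd9 passed with Hoxd10 and Hoxd13. Its r was 0.918 with Hoxd10 and 0.910 with Hoxd13 (adjusted p = 0.0434 and 0.0203 by the exact permutation test), against 0.525 and 0.601 over 16 rats, which did not pass. Over 16 rats without the 2 farthest in Hoxd9 these r were -0.14 and -0.11, and in the 13 rats without the 2 farthest they were 0.662 and 0.570. On arrays 1 to 4 and on arrays 5 to 8, Hoxd9 had r of 0.79 and 0.14 with Hoxd10 and 0.88 and -0.02 with Hoxd13. By Pearson's r, Hoxb9 passed with no other member, and its rho with Hoxd13 was 0.679 (permutation adjusted p = 0.0245).

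Within the sets of arrays, the signs of the 4 pairs held. On arrays 1 to 4 and on arrays 5 to 8, r was 0.903 and 0.790 for Hoxd10 and Hoxd13, 0.678 and 0.774 for Hoxb13 and Hoxd10, 0.460 and 0.889 for Hoxb13 and Hoxd13, and -0.866 and -0.943 for Hoxa11 and Hoxb13. With 8 rats and 96 permutations in each set, 0 of the 15 pairs passed, the lowest adjusted p of the exact permutation test being 0.313. Without the 2 rats farthest in Hoxa11, r of Hoxa11 and Hoxb13 was -0.285 on arrays 1 to 4 and -0.858 on arrays 5 to 8. The other pairs of the 4 had 0.43 to 0.81 within the sets without the 2 farthest rats.

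**Figure D3:**
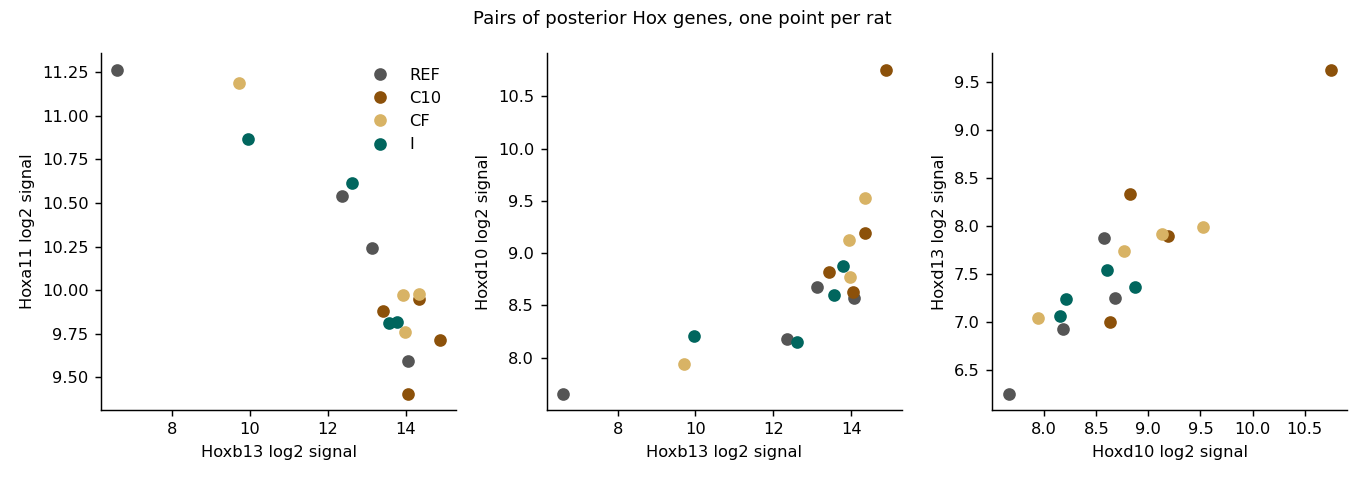
Log2 signals of Hoxa11 against Hoxb13, Hoxd10 against Hoxb13 and Hoxd13 against Hoxd10 (one point per rat, coloured by diet). Hoxa11 falls and Hoxd10 rises with Hoxb13, with r of -0.888 and 0.642 after removal of diet means, and C10 rat 4 is highest in Hoxb13, Hoxd10 and Hoxd13.

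Relations of other Hox genes with the members were of both signs. Of 23 more anterior Hox genes, 6 were tested, and of 7 further posterior ones Hoxd12 alone, which was well above background in 6 of 16 rats. Hoxb3, Hoxb8, Hoxc4, Hoxc5, Hoxc12 and Hoxd1 had probes that were well above background in at most 3 rats and were not tested. In C10 against REF, 0 of the 6 anterior genes passed at an adjusted p below 0.05, against 1.49 % of all genes, 1 was higher and 5 were lower, and their median change was -0.06. Of 42 pairs of a member with another Hox gene, 14 passed after adjustment over these pairs, 6 with a positive and 8 with a negative r. Among the members themselves 4 of 15 pairs had passed. In the 13 rats 1 of the 42 pairs passed, beside 4 of the 15 pairs of members.

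Hoxa2, which patterns the hindbrain, had r = 0.948 with Hoxa11 and r = -0.895 with Hoxb13 (permutation adjusted p = 0.00147 and 0.00231). Hoxd4 had r = 0.848 with Hoxa11 and -0.748 with Hoxb13. Hoxa7 had r = 0.596 and -0.538 with them, and Hoxb4 r = 0.597 and -0.520, all passing. Since Hoxa11 and Hoxb13 had r = -0.888 with each other, the opposite signs of a gene with them are not separate results. The range of Hoxa2 was 6.62 to 7.37, that of Hoxd4 6.46 to 6.82 and that of Hoxa7 11.33 to 13.23. Hoxd4 was well above background in 15 of 16 rats. Hoxd12, the gene next to Hoxd13, moved with Hoxd9 (r = 0.876, permutation adjusted p = 0.0316), but its r with Hoxb13 was 0.00. C10 rat 4 was the highest rat in both Hoxd12 and Hoxd9. Without the 2 rats farthest in Hoxd9, r of this pair was 0.566. Hoxa6 moved with Hoxb9 (r = 0.688). The relation of Hoxb4 with Hoxb13 had r = -0.15 on arrays 1 to 4, -0.94 on arrays 5 to 8, -0.31 with no diet mean removed, -0.40 as Cy5 minus Cy3 within arrays and -0.35 in the 13 rats, and passed in none of these.

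**Figure D4:**
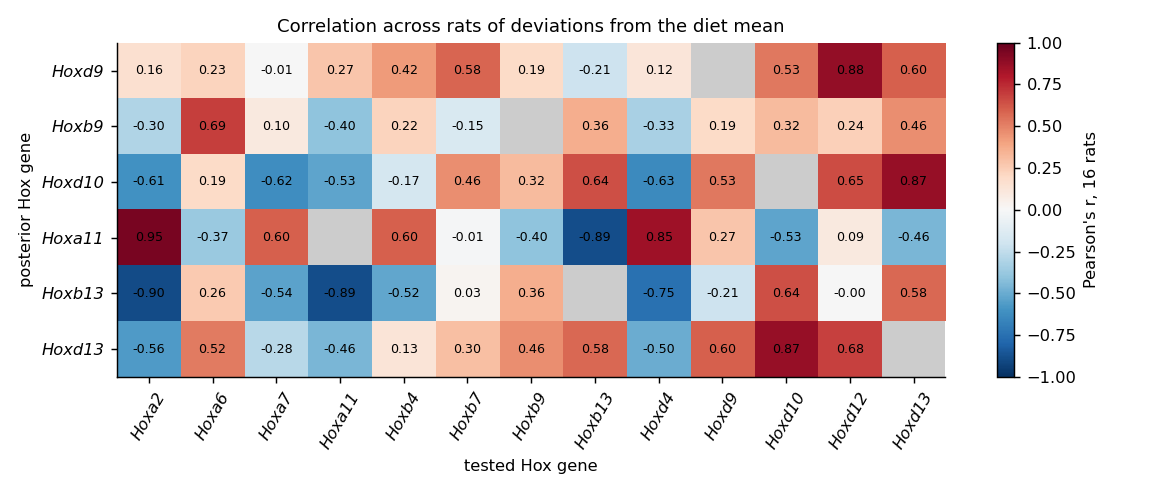
Pearson's r over 16 rats between deviations from the diet mean of each posterior Hox gene (rows) and each tested Hox gene (columns), in red above 0 and blue below 0, with the gene itself in grey. Hoxa11 and Hoxb13 have opposite signs in most columns, such as 0.95 and -0.90 for Hoxa2.

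Among genes that work with Hox proteins or mark position along the gut, 0 passed at an adjusted p below 0.05 in C10 against REF, where 1.49 % of all genes did. Of 9 TALE cofactor genes, 7 were tested, and 0 passed in C10 against REF, with a median change of -0.11. Of 15 genes of Polycomb, Trithorax and related chromatin complexes, 10 were tested and 0 passed, with a median of 0.05. Of 10 transcription factors of position along the gut, such as the CDX and GATA factors, 5 were tested and 0 passed, with a median of 0.11. The median over all genes was 0.01. Cdx2, the intestinal homeobox factor, singled out after its values were seen, had log2 signals of 12.0 to 14.2, lowest in C10 rat 4, and r = -0.895 with Hoxd10 over 16 rats, given with no test.

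Few other gene groups varied with the members across rats. The mean of each of 13 further lists, and each rat's percentage of spots over background, was set against each member in 84 relations with adjustment over them, and 3 passed. The mean of a list of 8 genes of the aldosterone response rose with Hoxd10 and with Hoxb13. With Hoxd10, r was 0.872 and rho 0.797 (permutation p = 0.00032 and 0.00145, adjusted p = 0.0151). With Hoxb13, r was 0.700 and rho 0.671 (permutation p = 0.00036 and 0.00082, adjusted p = 0.0151). Without the 2 rats farthest in the list these r were 0.834 and 0.637, and within the sets of arrays they were 0.917 and 0.740 for Hoxd10 and 0.790 and 0.712 for Hoxb13. The list's relation with Hoxb13 was uneven over its genes. Atp12a, a proton-potassium pump of the colon, spanned 6.68 on the log2 scale and had r = 0.924 with Hoxb13, whereas the other 7 genes had r of -0.08 to 0.33, the sodium channel subunits Scnn1a, Scnn1b and Scnn1g with 0.33, 0.18 and 0.13 included. Nr3c2 and Hsd11b2, also on the list, had r of -0.08 and 0.03 with Hoxb13. The mean of this list was 10.1 to 10.8 in REF and 10.6 to 11.9 in C10, where its median change was 0.44 and 0 of 8 genes passed at an adjusted p below 0.05, against 1.49 % of all genes. Relations of its single genes with Hoxd10 are not given, and the mean was not scaled. Beside Atp12a, Scnn1g spanned 4.21, with its highest signal in C10 rat 4. Scnn1b and Sgk1 spanned 2.26 and 1.99, and Prss8, Hsd11b2, Nr3c2 and Scnn1a 0.59 to 1.01. Several genes of this list are among those the study picked from these rats.

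The mean of 8 small intestine genes fell with Hoxd13 (r = -0.835, rho = -0.721, permutation p = 0.00136 and 0.0103, adjusted p = 0.0381), with r = -0.743 without the 2 farthest rats and -0.857 and -0.917 within the sets of arrays. Their mean was 7.71 to 8.63 in REF and 7.61 to 8.41 in C10. The list was uneven over its genes and its mean was not scaled. Apoa4, Apoa1 and Fabp2 spanned 3.38, 2.55 and 2.44 on the log2 scale, and the others 0.34 (Lct) to 1.06 (Anpep). With Hoxb13, r of the single genes ran from -0.82 for Fabp2 to 0.56 for Anpep, and those with Hoxd13 are not given. Cell type lists also differed between pieces of 1 diet. The mean of 6 B cell genes was 7.34 to 9.88 over all rats and that of 7 T cell genes 7.18 to 9.52. Hoxa11 had r = -0.757 with the B cell list and r = -0.696 with the T cell list, with adjusted p = 0.0670 and 0.0684 by the permutation test, and r = 0.771 with the colon epithelium list (adjusted p = 0.0670). All 10 smooth muscle genes were lower in C10 than in REF, with a median of -0.76, and 0 passed, C10 rat 1 lying far below the others. The part of these cell types in the values of the members was not tested.

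The genes most like the average of the members were found by the correlation of their deviations with the mean of the scaled deviations of the 6 members over 16 rats. Among the highest were Ces1d (r = 0.957), a carboxylesterase, Kcnh6 (0.899), Lipg (0.885), the endothelial lipase, Zmynd10 (0.884), Tnnt2 (0.861), the cardiac troponin T, Plac9 (0.840) and Slc46a1 (0.832), the proton-coupled folate transporter. The 4 lowest were Casp8 (-0.920), the initiator caspase of death receptors, Epsti1 (-0.880), Sstr2 (-0.858), a somatostatin receptor, and Oas1a (-0.847), an interferon-induced enzyme. They lie at the extremes of all genes with a symbol and are given with no test. C10 rat 4 was the highest rat in 6 of the 7 former, all but Lipg, and the lowest in all 4 of the latter. The average does not stand for each member, since Hoxa11 enters it beside genes that ran against it. Ces1d had r = 0.28 with Hoxb13 and -0.13 with Hoxa11, and Kcnh6 had 0.29 and -0.23.

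Each member had its own closest gene, that of highest r among all tested genes with a symbol, given with no test. It was Sval1 for Hoxb13 (r = 0.968), with log2 signals of 5.86 in REF rat 4 to 15.17 in C10 rat 4, Pde7a, a phosphodiesterase of cyclic AMP, for Hoxd10 (0.961), Tnnt2 for Hoxd13 (0.889), Cplx3 for Hoxd9 (0.890), Tulp4 for Hoxb9 (0.909) and Dnajc10, a chaperone of the endoplasmic reticulum, for Hoxa11 (0.973). Hoxd10 was the gene second closest to Hoxd13, and Hoxd12 the third for Hoxd9. Cplx3 had dim signals of 6.44 to 6.98 and, like Hoxd9, was highest in C10 rat 4. Tulp4 spanned 0.61 on the log2 scale.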

How the data were processed

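Gene expression was measured on 8 two-colour Agilent arrays in 16 rats. The authors used Agilent Feature Extraction 10.7.3.1 and deposited median fluorescence intensities of spots and their surroundings, not normalized, and processed intensities, which entered 1 alternative. The 8 columns of a normalized table carry no names that tie them to samples, and it stayed out.

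Median intensities were corrected by normexp (offset 50) and normalized by spatial loess (span 0.4), intensity loess (span 0.3) and Aquantile in limma 3.58.1, following the study's steps. Log2 signals of each dye were fitted with terms for diet and dye, and rats sharing an array were blocked (correlation 0.476 between the dyes of a spot), so a fitted change can differ from a difference of means. Probes well above background in at least 4 of 16 rats were kept, and the brightest stood for its gene. P-values were adjusted by Benjamini-Hochberg over 19901 genes and measure the spread between rats, and 4 rats per diet limit their precision. Rank product used 100 permutations of genes within rats, and its calls also needed at least a 2-fold change. The fit was tested on simulated data.

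Probes were named by accession through RefSeq (GRCr8). All members were named, lists by counts, and like genes by rank of r, and a few genes are not reported here. The members, lists and tests were chosen with earlier results of these data known. Alternatives covered background correction, normalization, filter, probe choice, dye, array, test and each rat left out.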

Additional observations from a re-analysis of the deposited data

Results flagged for a closer look

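Within each diet, the highest and the lowest of the 4 rats were compared with the nearest other rat for the 6 posterior Hox genes, 24 groups of rats in all, and 2 groups had a rat farther apart than Dixon's critical value for 4 samples. Both were CF rat 2, with a Hoxb13 log2 signal of 9.72 (ratio of gap to range 0.909) and a Hoxa11 log2 signal of 11.19 (0.847). Chance alone flags about 1 group in 20, and the genes are not independent of each other. REF rat 4, at 6.60 in Hoxb13, stayed below the critical value (0.772).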

How the results depend on the processing

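Of 0 members called by limma in 6 comparisons, the count stayed 0 under all alternatives of processing, filter, terms and adjusted p alone, and with each rat left out (lowest 0, highest 0), whereas rank product called 3 in C10 against REF, 1 in CF against REF and 1 in C10 against I. Under rank product the C10 changes of Hoxb13, Hoxd10 and Hoxd13 were 2.64, 1.08 and 1.14. The median change with each rat left out was 0.33 to 1.03 in C10, -0.00343 to 0.41 in CF and -0.19 to 0.18 in I. Log-ratios within arrays gave 0.50, -0.03 and -0.07. No member's C10 change turned direction. Of 15 pairs of members, 4 passed over 16 rats, 8 with no diet mean removed, 0 on arrays 1 to 4 and 0 on arrays 5 to 8 (fewer rats and permutations), 6 as Cy5 minus Cy3 within arrays, and 4 in the 13 rats, of which Hoxb13 with Hoxd10 and Hoxd10 with Hoxd13 were among the 4 over 16 rats.

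Turned directions concerned Hoxd9 and 1 pair of Hoxb9. With no diet mean removed, r was -0.000818 for Hoxa11 and Hoxd9 and 0.0707 for Hoxb13 and Hoxd9. Within arrays, as Cy5 minus Cy3, it was -0.61 for Hoxa11 and Hoxd9, -0.13 for Hoxb9 and Hoxd9 and 0.37 for Hoxb13 and Hoxd9. Hoxb13 and Hoxd9 had 0.12 on arrays 1 to 4, and Hoxd9 and Hoxd13 -0.0238 on arrays 5 to 8. In the 13 rats r was -0.0274 for Hoxa11 and Hoxd9 and 0.47 for Hoxb13 and Hoxd9. Without the 2 farthest rats it was -0.14 for Hoxd9 and Hoxd10 and -0.11 for Hoxd9 and Hoxd13. The cause was not tested. No paired analysis was possible because rats of different diets share no replicate numbers in the labels; the 2 rats of an array were instead blocked in the fits and compared as log-ratios within arrays. Of the lowest values, Hoxd13 in REF rat 4 (6.25) passed the test over background.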
